A study of Mus musculus with 9 samples.

Results

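The untreated nigra is described here by the 3 control libraries (Ctrl1, Ctrl2 and Ctrl3) of a series of 9 bulk RNA sequencing libraries from mice. The libraries were chosen by their labels alone, and the genes are the 22036 rows with an Ensembl identifier among the 27339 rows of the deposited table that name a gene. The tissue is labelled substantia nigra pars compacta, and each library was made from total RNA. The other groups of the series, 3 libraries given the toxin MPTP and 3 given MPTP with a ketogenic diet of medium-chain triglycerides, were not used. The labels give the control group as untreated ("Ctrl") and state no strain, age, sex or diet for it. Nothing in them ties a library to 1 animal, so every SD below measures the spread between 3 libraries, which may be technical.

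The pars compacta is the strip of midbrain whose dopamine neurons project to the striatum. Dopamine is made from tyrosine by tyrosine hydroxylase and aromatic amino acid decarboxylase, loaded into vesicles by the vesicular monoamine transporter, and taken back after release by the dopamine transporter. The strip lies on the pars reticulata, a field of GABA neurons that fire fast and without pause, and is crossed by myelinated fibres, so a dissected piece holds many other cells. Levels are the authors' FPKM (fragments per kilobase of transcript scaled to the mapped fragments of the library), which can be compared between genes. Values given in threes stand in the order Ctrl1, Ctrl2, Ctrl3, and means are given ± SD with n = 3 throughout. One gene is called higher than another where its lowest library lay above the other's highest library. In bulk tissue fewer cells of a type and less RNA per cell cannot be told apart. The Y chromosome genes Ddx3y (17.6, 13.7 and 17.3 FPKM) and Eif2s3y (9.80, 8.85 and 11.1 FPKM) were read in every library. Male tissue was therefore present in each, and whether female tissue was too cannot be told from these genes.

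Dopamine neuron genes were read in every library. Th, the rate-limiting enzyme of dopamine synthesis, stood at 56.1, 43.0 and 36.3 FPKM (mean 45.1 ± 10.03 FPKM, rank 1400 of 22036 genes). The dopamine transporter gene Slc6a3 stood at 49.8, 43.1 and 36.1 FPKM, and the ranges of the 2 genes overlapped (ratio 1.04 ± 0.0718). Th and Slc6a3 were highest in Ctrl1 and lowest in Ctrl3. The decarboxylase gene Ddc, at 55.6, 48.3 and 62.4 FPKM, and the vesicular transporter gene Slc18a2, at 29.2, 25.3 and 30.1 FPKM, were highest in Ctrl3 instead. Serotonin neurons also use both of these genes. The Th promoter is shown because the level of this gene defines the tissue. It is the 250 bases before the RefSeq start (chr7:142899996-142900245, GRCm38.p6, minus strand), written in the direction of transcription, with the GC box GGGCGG and the cAMP response element core TGACGT in capitals. The latter and its reverse complement overlap and form the 8 capitals nearest the start, which begin 45 bases before it.
Th promoter: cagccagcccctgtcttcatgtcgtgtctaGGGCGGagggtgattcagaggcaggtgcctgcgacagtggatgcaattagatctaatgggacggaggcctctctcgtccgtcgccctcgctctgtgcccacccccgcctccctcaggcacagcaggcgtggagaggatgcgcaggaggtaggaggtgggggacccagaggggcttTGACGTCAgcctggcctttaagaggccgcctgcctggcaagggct
On either strand TGACGT occurred in 7.71% of the 16512 promoters matched by symbol, and GGGCGG in 44.3%, counted over the same 250 bases. A match is a description of the sequence and not a site shown to be used.

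The cofactor and breakdown enzymes spanned a wide range. Qdpr, which regenerates tetrahydrobiopterin, the cofactor of Th, was the highest of the 12 dopamine handling genes at 198 ± 19.5 FPKM, and Gch1, which starts the synthesis of that cofactor, was the lowest at 3.57, 3.33 and 6.88 FPKM. Gch1 was highest in Ctrl3, unlike Th. Serotonin neurons need the same cofactor, and which cells held these enzymes and the oxidases below cannot be told from bulk tissue. Of the monoamine oxidase genes, which break dopamine down, Maob (20.4, 17.9 and 21.7 FPKM) was higher than Maoa (14.3, 12.97 and 14.2 FPKM) in each library, with a ratio of 1.45 ± 0.0757.

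Transcription factors of dopamine neurons lay below Th in every library. Nr4a2, needed for the dopamine fate, stood at 8.44, 7.82 and 7.37 FPKM, and Pitx3, which marks nigral and tegmental dopamine neurons, at 2.33, 1.69 and 1.41 FPKM. The engrailed genes En1 and En2, which keep dopamine neurons alive, were at 3.87 ± 0.153 FPKM and 3.01 ± 0.724 FPKM, and Lmx1b at 2.30 ± 0.262 FPKM. Otx2, a factor of the midbrain that in adult dopamine neurons is found mainly in the ventral tegmental area, was at 5.73, 8.75 and 12.4 FPKM, rising from Ctrl1 to Ctrl3 in the opposite direction to Pitx3. Ctrl3 also held choroid plexus, pineal and photoreceptor transcripts, given below, and whether Otx2 came from dopamine neurons or from other cells was not tested. Sox6, a factor of the pars compacta, was at 3.23, 3.23 and 3.23 FPKM and varied less than any other factor of this list.

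All 16 other genes enriched in or subdividing dopamine neurons were above 1 FPKM on average. Aldh1a1, an aldehyde dehydrogenase of the ventral tier, was at 139.9, 138 and 119.5 FPKM. Calb1, a buffer of calcium in the dorsal tier and of the ventral tegmental area, was at 37.2, 21.9 and 26.4 FPKM, and its ranges did not overlap those of Aldh1a1. Other midbrain and thalamic neurons also hold Calb1. The peptide gene Cck, common in tegmental dopamine neurons, was at 91.6, 57.0 and 71.9 FPKM. Calb2, a calcium buffer of several midbrain and thalamic neurons, was at 129.6, 128 and 132 FPKM, the imprinted gene Dlk1 at 46.8, 33.0 and 39.5 FPKM, and the synuclein gene Sncg at 29.4 ± 1.36 FPKM. Ret, the receptor of the growth factor GDNF, was at 25.2 ± 2.57 FPKM, the autoreceptor gene Drd2 at 12.6 ± 0.681 FPKM, and the potassium channel gene Kcnj6 at 5.35 ± 0.404 FPKM. Anxa1, which marks a small ventral group, was the lowest of the list at 2.32, 1.38 and 1.78 FPKM. Of these 16 genes 10 were highest in Ctrl1 after scaling of counts by TMM, 8 were lowest in Ctrl3 and 7 in Ctrl2. Such counts by library are read against all genes of at least 1 FPKM, of which 33.7% were highest in Ctrl1, 36.3% in Ctrl2 and 30.05% in Ctrl3, and 33.8%, 34.8% and 31.4% lowest in them.

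**Figure D1:**
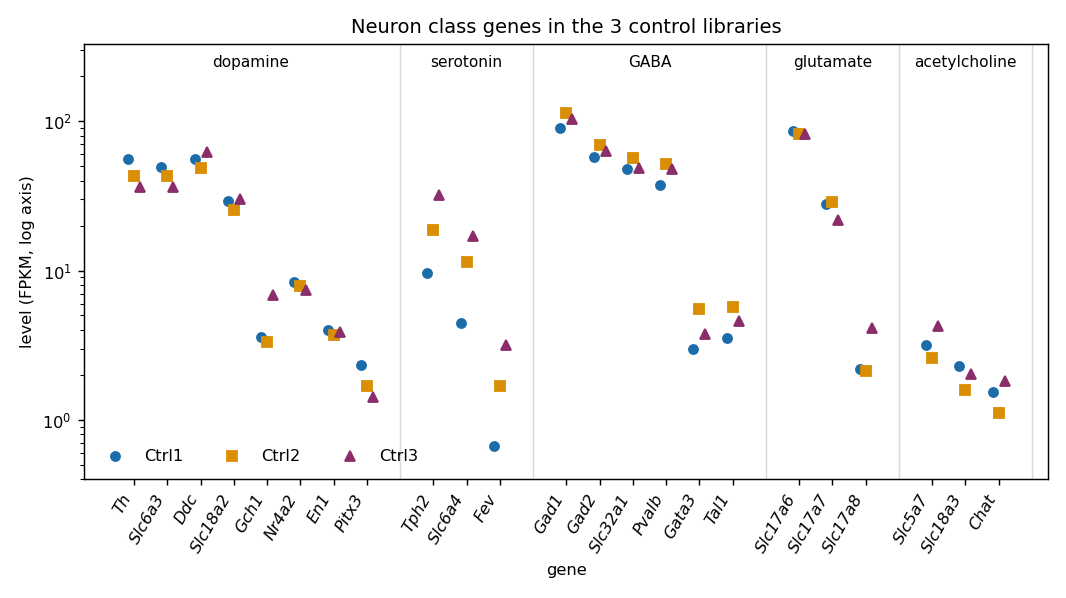
Level of neuron class genes in FPKM (log axis) in each control library, 1 point per library and gene. Th and Slc6a3 fall from Ctrl1 to Ctrl3 while Tph2, Slc6a4 and Fev rise, and Gad1 and Slc17a6 lie above Th in all 3 libraries.

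Of 7 serotonin genes of at least 1 FPKM, 3 differed 2-fold or more between the highest and lowest library on TMM-scaled counts, against 1 of 12 dopamine handling genes. Of all genes of that level 2.58% did so. Serotonin genes mark the raphe nuclei, which lie behind the nigra. Tph2, the rate-limiting enzyme of serotonin synthesis in the brain, stood at 9.59, 18.6 and 31.9 FPKM, the serotonin transporter gene Slc6a4 at 4.45, 11.4 and 17.1 FPKM and the factor Fev at 0.670, 1.67 and 3.18 FPKM. All 3 were lowest in Ctrl1, intermediate in Ctrl2 and highest in Ctrl3. The ratio of Tph2 to Th was 0.171, 0.434 and 0.879, so the order of the libraries was opposite for these 2 genes. The autoreceptor gene Htr1a was at 4.16, 5.26 and 5.57 FPKM. Gata3, Ddc and Slc18a2, which serotonin neurons share with other classes, are given beside those classes. Whether the extent of dissection set these differences was not tested.

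The GABA synthesis genes Gad1 and Gad2 were higher than Th and Slc6a3. Gad1, which makes GABA, stood at 89.7, 114 and 104 FPKM and Gad2 at 57.8, 69.0 and 63.2 FPKM, a ratio of 1.62 ± 0.0577. The vesicular GABA transporter gene Slc32a1 stood at 48.0, 57.1 and 49.0 FPKM, 1.84 ± 0.3595 times Slc18a2. Its lowest library was in the range of Th and of Slc6a3, so the order against those 2 genes was not fixed. Abat, which breaks GABA down, was at 131 ± 4.28 FPKM, and Aldh5a1, the next enzyme, at 29.9 ± 0.719 FPKM. Pvalb, the calcium buffer of fast-firing nigral GABA neurons, was at 37.7, 51.8 and 47.9 FPKM. The factors Gata3 (3.0, 5.56 and 3.75 FPKM), Tal1 (3.53, 5.67 and 4.62 FPKM) and Zfpm2 (2.92, 4.88 and 3.595 FPKM), which specify midbrain GABA neurons, were lowest in Ctrl1 and highest in Ctrl2. Foxp1, a factor of several neuron classes, was at 8.91, 7.39 and 10.6 FPKM. Of the 8 GABA handling genes 5 were highest in Ctrl2 and 6 lowest in Ctrl1, where of all genes 36.3% were highest in Ctrl2 and 33.8% lowest in Ctrl1.

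Glutamate neurons were represented mainly by Slc17a6, the vesicular transporter of subcortical neurons, at 86.5, 82.3 and 82.7 FPKM. The cortical form Slc17a7 was at 27.8, 29.0 and 21.7 FPKM, a ratio of 3.25 ± 0.502, and Slc17a8, found in raphe and other neurons, was at 2.17, 2.13 and 4.13 FPKM. Glud1, which links glutamate to the citric acid cycle, was at 118 ± 2.43 FPKM, and the astrocyte transporter gene Slc1a3 at 66.5 ± 7.83 FPKM. Gad1 was higher than Slc17a6 in each library, by 1.04, 1.39 and 1.26 times. The markers of cholinergic neurons were low. Slc5a7, the choline transporter, was at 3.18, 2.60 and 4.22 FPKM and Chat, which makes acetylcholine, at 1.54, 1.102 and 1.82 FPKM. The vesicular transporter gene Slc18a3 was at 1.96 ± 0.362 FPKM, the filament gene Prph at 5.64 ± 0.638 FPKM and the factor gene Isl1 at 2.87, 0.902 and 2.60 FPKM. Ache, the enzyme that breaks acetylcholine down and that other neurons express too, was at 80.9 ± 3.04 FPKM. The noradrenaline gene Dbh had no counts in any library, which at these depths allows up to 3 counts in each (counting error only), with Slc6a2 at 0.0104 ± 0.00927 FPKM. Slc6a5, the transporter of glycine neurons, was at 0.456, 2.62 and 2.20 FPKM and lowest in Ctrl1, and Slc6a9, the glial glycine transporter, at 45.3 ± 1.92 FPKM. The histamine enzyme gene Hdc, of the tuberomammillary nucleus, was at 7.06, 5.44 and 6.16 FPKM.

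General neuronal genes were among the highest nuclear transcripts. Snap25, of the vesicle fusion machinery, stood at 828, 938 and 857 FPKM (rank 18), the ubiquitin hydrolase gene Uchl1 at 464 ± 51.6 FPKM and the complexin gene Cplx1 at 373 ± 14.5 FPKM. The 26 neuronal genes had a median of 175 FPKM and together held 1.57 ± 0.0523% of summed FPKM. Vamp1 was the member with the highest ratio of Ctrl2 to Ctrl1, at 182, 274 and 235 FPKM. It is the synaptobrevin of fast-firing neurons. Nefm (121, 158 and 136 FPKM) and Cplx2 (78.2, 106 and 93.2 FPKM) had the same order.

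Genes linked to inherited parkinsonism were read at widely different levels, from Uchl1 downward. Pink1, the kinase that marks damaged mitochondria, stood at 174, 194 and 181 FPKM. Park7, which protects against oxidation, was at 86.7, 79.9 and 89.6 FPKM, Vps35, which sorts endosomal cargo, at 54.1, 51.1 and 53.2 FPKM, and the kinase gene Lrrk2 at 2.40, 3.08 and 2.71 FPKM. Pink1 was highest in Ctrl2. All 16 genes of the list were above 1 FPKM.

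Neuropeptide genes followed the library. Of 28 genes of at least 1 FPKM, 13 differed 2-fold or more, and 20 were highest in Ctrl1 and 22 lowest in Ctrl2. Of all genes of that level 2.58% differed 2-fold or more, 33.7% were highest in Ctrl1 and 34.8% lowest in Ctrl2. The genes of granule proteins, which most peptide neurons share, were steadier: Pcsk1n stood at 289, 263 and 289.8 FPKM, Scg2 at 210.4, 188 and 209 FPKM and Chga at 111, 124 and 120.1 FPKM. Among the peptides themselves Sst, of inhibitory neurons, was at 63.4, 54.0 and 64.5 FPKM, and Penk, the enkephalin precursor, at 58.1, 36.2 and 39.0 FPKM. Penk is 1 of the genes whose FPKM and counts imply different lengths (1.39-fold). Tac1, the substance P gene, whose striatal peptide reaches the nigra in axons, was at 35.4, 34.6 and 30.1 FPKM, and Tac2 at 19.9, 10.6 and 11.8 FPKM. Nts was at 7.95, 5.68 and 7.27 FPKM, Grp at 2.21, 5.28 and 4.56 FPKM and Vip at 2.35, 1.31 and 5.46 FPKM. Grp was lowest in Ctrl1 and Vip highest in Ctrl3, against the order of the group.

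Inhibitory receptor genes were led by the GABA-B subunit gene Gabbr1 at 232, 213 and 214 FPKM. Among GABA-A subunits Gabrb2, of the common synaptic receptor, stood at 42.8, 45.5 and 42.8 FPKM. The alpha subunit gene Gabra3 stood at 34.2, 34.5 and 35.2 FPKM, above Gabra2 at 6.47, 6.33 and 6.16 FPKM. Gabra4 (31.8, 19.5 and 23.0 FPKM) and Gabrd (14.5, 6.95 and 8.42 FPKM), subunits of tonic receptors abundant in the thalamus, were highest in Ctrl1 and lowest in Ctrl2. The cerebellar Gabra6 had counts of 0, 4 and 0. Glrb, the beta subunit of the glycine receptor, was at 90.3 ± 1.13 FPKM, above its alpha subunit genes Glra2 (10.7 ± 0.526 FPKM), Glra1 (8.45 ± 1.38 FPKM) and Glra3 (6.76 ± 0.204 FPKM).

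For glutamate, the obligatory NMDA subunit gene Grin1 stood at 78.7, 84.5 and 79.7 FPKM, 12.1 ± 1.41 times Grin2b. Grin2d (13.1 ± 1.38 FPKM) was higher than Grin2a (4.30 ± 0.287 FPKM) in each library. The AMPA subunit gene Gria1 was 2.50 ± 0.0208 times Gria2, and the 3 ratios lay between 2.48 and 2.52. Gria2, the subunit that makes AMPA receptors impermeable to calcium, was at 23.7 ± 0.443 FPKM. Of the metabotropic receptor genes, Grm4 was at 16.8 ± 1.37 FPKM and Grm5 at 14.5 ± 0.552 FPKM.

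Receptors for monoamines and acetylcholine were low except for a few. Htr2c, a serotonin receptor, was the highest of 27 monoamine receptor genes at 33.6, 33.8 and 38.8 FPKM. Drd2 was 14.1 ± 2.86 times Drd1, whose level was 0.916 ± 0.177 FPKM. The nicotinic subunit gene Chrna4 stood at 25.6 ± 0.863 FPKM and Chrnb2 at 19.6 ± 0.694 FPKM. Chrna6, which dopamine neurons use, was at 9.62, 9.72 and 7.43 FPKM, and Chrnb3, which pairs with it, at 4.33, 4.21 and 3.05 FPKM. Chrna6 and Chrnb3 were lowest in Ctrl3, as were Th and Slc6a3. Chrnb4 was at 2.20, 1.15 and 5.999 FPKM, highest in Ctrl3. Pineal and habenular cells also express it.

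Among channel genes Hcn2, of the pacemaker current, stood highest at 109, 122 and 119.5 FPKM. The fast potassium channel gene Kcnc1 (69.3 ± 6.19 FPKM), which lets neurons fire at high rates, and the sodium channel gene Scn1a (40.5 ± 3.44 FPKM) were among the next. Hcn2, Kcnc1 and Scn1a were highest in Ctrl2. Kcnj10 (92.1 ± 9.72 FPKM), the second highest, is a channel of glia. Cacna1d, the calcium channel used in dopamine neuron pacemaking, was at 4.39 ± 0.271 FPKM, below Cacna1g (19.0 ± 0.844 FPKM) and Cacna1a (17.0 ± 0.592 FPKM). Receptors for peptides and modulators included Ntsr2, an astrocytic neurotensin receptor, at 89.4 ± 4.36 FPKM, the adenosine receptor gene Adora1 at 40.8 ± 4.399 FPKM and the cannabinoid receptor gene Cnr1 at 13.9 ± 0.839 FPKM. Of the net around fast-firing neurons, Hapln4 was at 39.9, 51.5 and 45.4 FPKM and Acan at 0.858, 1.32 and 0.860 FPKM, both highest in Ctrl2. The small-conductance channel gene Kcnn3 of dopamine neurons was at 4.56 ± 0.367 FPKM.

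Oligodendrocyte genes held 1.58 ± 0.154% of summed FPKM. Mbp, which compacts myelin, had the highest mean of the nuclear transcripts, at 2253, 2805 and 2583 FPKM, and its range overlapped that of Fth1. Mobp stood at 634, 729 and 658 FPKM. Mog, on the outer face of myelin, was at 51.0, 59.0 and 56.0 FPKM. Of 25 genes 22 were highest in Ctrl2 and 15 lowest in Ctrl1 on scaled counts, where over all genes Ctrl2 was highest for 36.3%. The exception in size was Enpp2, at 72.2, 86.3 and 276 FPKM, a gene that choroid plexus also expresses. Precursor genes were lower, with Pdgfra at 9.32 ± 0.624 FPKM, Cspg4 at 2.62 ± 0.131 FPKM and a list median of 16.0 FPKM.

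Astrocyte genes held 1.56 ± 0.0200% of summed FPKM, a share whose range overlapped that of the oligodendrocyte genes. The lipid carrier gene Apoe stood at 1025, 893 and 983 FPKM, Sparcl1 at 750.2 ± 48.9 FPKM and glutamine synthetase (Glul) at 480.3 ± 28.0 FPKM. The GABA transporter gene Slc6a11, which midbrain astrocytes use, stood at 212, 219 and 232 FPKM. The glutamate transporter gene Slc1a2 was at 121, 120.3 and 121 FPKM, with the lowest CV of the 27 genes (0.431%). Gfap was at 53.9, 72.8 and 55.6 FPKM, and the water channel gene Aqp4 was 0.702 ± 0.0471 times Gfap in FPKM.

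Microglial genes were lower, with a median of 7.15 FPKM over 24 genes. The receptor genes Cx3cr1 (7.34, 9.68 and 9.33 FPKM), P2ry12 (6.66, 7.64 and 7.54 FPKM) and Tmem119 (5.94, 6.78 and 8.35 FPKM) mark these cells. The complement genes C1qa, C1qb and C1qc stood at 21.01 ± 1.90 FPKM, 23.6 ± 1.46 FPKM and 18.9 ± 0.761 FPKM. Cst3, at 747 ± 18.8 FPKM, is also expressed by astrocytes and neurons. Genes of other immune cells were near 0: of 23 listed, 1 exceeded 1 FPKM on average, namely Spp1 (29.3, 44.98 and 24.9 FPKM), which oligodendrocytes and neurons also express. Mrc1, of perivascular macrophages, was at 0.8496 ± 0.0450 FPKM, the T cell gene Cd3e had counts of 2, 0 and 0, and the neutrophil genes S100a8 and Camp had none.

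**Figure D2:**
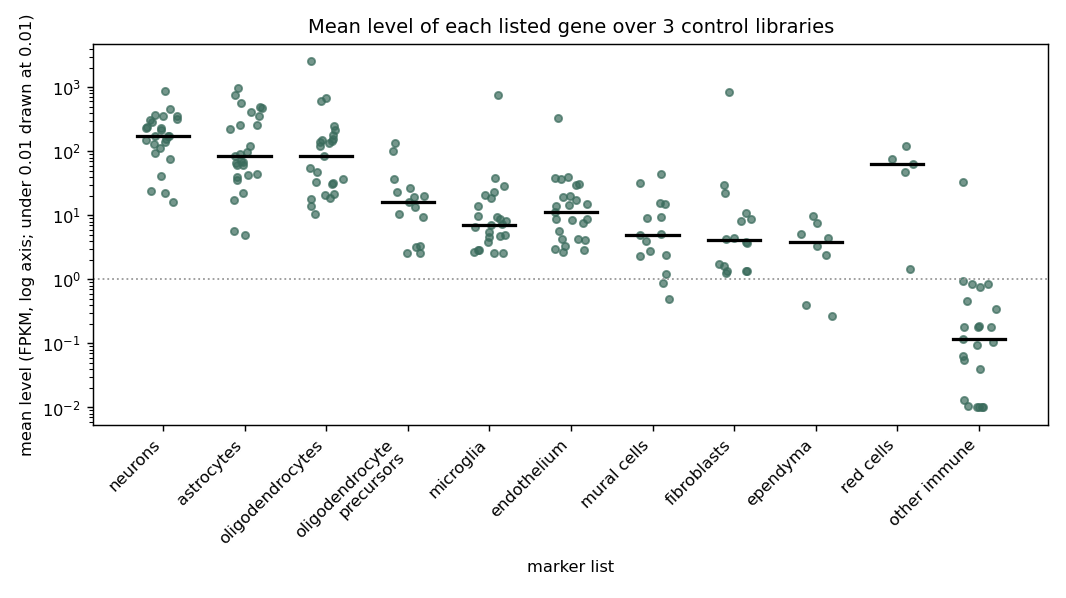
Mean FPKM (log axis) of each gene of the neuronal, glial, vessel and immune lists over 3 control libraries, 1 point per gene, with the list median as a bar and 1 FPKM as a dotted line. The medians run from 174.8 for neurons to 0.115 for other immune cells.

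Vessel genes were read in every library at moderate levels. Cldn5, of endothelial tight junctions, stood at 28.7, 32.8 and 29.9 FPKM, 3.65 ± 0.235 times Pecam1, and the glucose transporter gene Slc2a1 at 46.4, 35.1 and 37.1 FPKM. Bsg, at 326 ± 11.5 FPKM, is also expressed by neurons and glia. The pericyte genes Rgs5 and Vtn stood at 32.2 ± 3.14 FPKM and 43.8 ± 5.18 FPKM, and Acta2, of arteriolar smooth muscle, at 19.0, 15.2 and 12.7 FPKM. Fibroblast genes of the meninges moved with the library: 13 of 16 were highest in Ctrl1 and 12 lowest in Ctrl3. Over all genes of at least 1 FPKM 33.7% were highest in Ctrl1 and 31.4% lowest in Ctrl3. Ptgds, prostaglandin D synthase of meninges and oligodendrocytes, stood at 1256, 901 and 413 FPKM, and the meningeal transporter gene Slc22a6 at 2.08, 1.61 and 0.332 FPKM. Red cell genes were all 5 highest in Ctrl3, where 30.05% of all genes were highest, with Hbb-bs at 95.5, 97.6 and 166 FPKM. The haemoglobin genes have near-identical copies, so the split between them is uncertain.

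Of 30 glycolytic genes 24 exceeded 1 FPKM on average, the median of the list was 32.7 FPKM, and a few members were far higher. Aldoa, an aldolase, stood at 768, 780.0 and 747 FPKM (rank 23), 1.87 ± 0.0585 times the astrocyte form Aldoc. Pkm was at 591 ± 26.3 FPKM and Tpi1 at 315 ± 19.2 FPKM. The enolase genes Eno1 and Eno2, the latter neuronal, were at 307, 309.6 and 304 FPKM and 303, 317 and 298 FPKM and overlapped. Hk1, which starts glycolysis in brain, was 95.3 ± 4.90 times Hk2, and Pfkm was 2.44 ± 0.0737 times Pfkp. Gapdh, at 44.0, 19.8 and 36.8 FPKM, lay far below its neighbours in the pathway, with Pkm at 20.02 ± 9.81 times Gapdh. Many processed copies of Gapdh lie in the mouse genome, and how the authors' counting treated reads shared with them is not given in the sources used here, so this level is uncertain.

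Lactate dehydrogenase transcript was mainly that of the heart form: Ldhb stood at 338, 364 and 328 FPKM and Ldha at 94.5, 88.6 and 97.5 FPKM, a ratio of 3.68 ± 0.387. Enzyme protein was not measured. The ranges did not overlap. For pyruvate entry, Pdha1 was at 81.8 ± 2.82 FPKM and the carrier gene Mpc1 at 57.6 ± 1.86 FPKM. Of the kinases that switch this step off, Pdk2 (44.2 ± 3.27 FPKM) was higher than Pdk3 (12.6 ± 1.73 FPKM), Pdk1 (8.10 ± 0.224 FPKM) and Pdk4 (3.44 ± 0.469 FPKM). In the citric acid cycle all 20 genes were above 1 FPKM, led by Mdh1 (320.3 ± 17.5 FPKM) and Sdha (176 ± 5.27 FPKM). Idh3b (129 ± 6.95 FPKM) was higher than the NADP-linked Idh1 (22.9 ± 1.85 FPKM) and Idh2 (18.8 ± 1.22 FPKM).

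Ketone body genes have a place here because the series as a whole concerns a ketogenic diet. Oxct1, the enzyme that lets tissue burn ketone bodies, stood at 73.6, 69.7 and 67.0 FPKM, 5.88 ± 0.240 times Bdh1, which oxidises 3-hydroxybutyrate. The monocarboxylate transporter gene Slc16a1 was at 12.2, 13.3 and 14.3 FPKM. The neuronal form Slc16a7 was at 1.82, 1.98 and 1.84 FPKM, but its counts were 197, 808 and 171, so its FPKM and counts imply lengths that differ 3.93-fold between libraries. The same mismatch was 1.75-fold for Slc16a3. Levels of both genes are therefore uncertain. Among 12505 genes with at least 100 counts the median mismatch was 1.01, and 832 genes exceeded 1.1.

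Of fatty acid genes, Scd2, a desaturase of myelinating cells and neurons, was at 507, 516 and 534 FPKM, 5.46 ± 0.116 times Scd1. Fasn was at 38.1 ± 1.03 FPKM. The transcript of the brain form Cpt1c (23.1 ± 1.03 FPKM) exceeded that of Cpt1a (8.81 ± 0.340 FPKM), which is no measure of fatty acid oxidation. Acadm, the medium-chain dehydrogenase gene of that oxidation, was at 16.0, 16.4 and 16.7 FPKM. All 21 cholesterol genes were above 1 FPKM, from Hmgcs1 (81.8 ± 1.89 FPKM) to Abca1 (5.43 ± 0.515 FPKM), and Cyp46a1, which clears cholesterol from neurons, was at 45.3 ± 4.88 FPKM.

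Stores and defences had a few dominant members. Creatine kinase Ckb was at 829, 842 and 814 FPKM, 6.67 ± 0.163 times the mitochondrial Ckmt1. Brain glycogen phosphorylase (Pygb) was 2.73 ± 0.204 times the muscle form Pygm. Ferritin heavy chain Fth1 stood at 2263, 2569 and 2512 FPKM, next to Mbp, and 14.7 ± 0.780 times Ftl1. The iron list, which Fth1 leads, held 0.803% of summed FPKM but 0.460% in counts per kilobase of the longest annotated transcript. The level of Fth1 thus depends on the length used. The transferrin gene Trf was at 198, 248 and 209 FPKM and the receptor gene Tfrc at 18.5, 15.4 and 18.8 FPKM. Sod1 was 4.94 ± 0.173 times Sod2, and Gpx4, which detoxifies lipid peroxides, was at 183 ± 6.38 FPKM. All 26 antioxidant genes were above 1 FPKM, with Hmox1 and Nqo1 lowest at 2.56 ± 0.226 FPKM and 2.43 ± 0.626 FPKM. In the pentose phosphate pathway, which supplies NADPH, Taldo1 (58.8 ± 1.66 FPKM) and Tkt (57.2 ± 0.288 FPKM) were higher than G6pdx (20.4 ± 0.977 FPKM).

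The 13 mitochondrially encoded protein genes took 6.70 ± 0.359% of the counts of annotated genes. The share was 7.12%, 6.45% and 6.54% in the 3 libraries, highest in Ctrl1. Of summed FPKM they took 17.3 ± 0.910%. mt-Co1, a subunit of cytochrome oxidase, was the highest gene of the tissue at 14862, 13419 and 14221 FPKM. mt-Atp6 stood at 7243, 6815 and 5959 FPKM and mt-Cytb at 5741, 5284 and 5646 FPKM. Next came mt-Atp8 (5467 ± 609 FPKM), mt-Nd1 (5240.4 ± 388 FPKM) and mt-Co2 (5044 ± 717 FPKM). mt-Co3 was at 4815 ± 526 FPKM, mt-Nd2 at 3940.5 ± 144 FPKM and mt-Nd4 at 3881 ± 417 FPKM. The complex I genes mt-Nd5 (2611 ± 170.3 FPKM), mt-Nd4l (2559 ± 338 FPKM) and mt-Nd6 (2536 ± 344 FPKM) were close to each other, and mt-Nd3, of the same complex, was the lowest of the 13 at 752, 685 and 583 FPKM. Of the 13 genes 12 were highest in Ctrl1 on scaled counts, against 33.7% of all genes of at least 1 FPKM.

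Nuclear subunit genes lay far lower. For complex I, which the product of MPTP blocks, the median was 61.1 FPKM over 36 nuclear genes and 2611 FPKM over 7 mitochondrial genes. The ratio of these medians was 44.7 ± 2.98 in complex I, 66.9 ± 1.43 in complex III, 44.6 ± 7.20 in complex IV and 49.8 ± 4.09 in complex V. The complex V list includes the inhibitor gene Atpif1. Within complex I, Ndufb8 (129 ± 2.95 FPKM) was high and Ndufc1 (17.3 ± 1.22 FPKM) was lowest. In complex IV the ubiquitous Cox4i1 (427, 464 and 449.6 FPKM) was 282 ± 84.0 times Cox4i2, and the muscle forms Cox6a2, Cox7a1 and Cox8b stood at 4.54 ± 0.878 FPKM, 1.59 ± 0.619 FPKM and 0.253 ± 0.438 FPKM. Ctrl2 was the highest library for 27 of 36 nuclear complex I genes (36.3% of all genes), whereas Ctrl1 was for 12 of 13 mitochondrial genes.

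**Figure D3:**
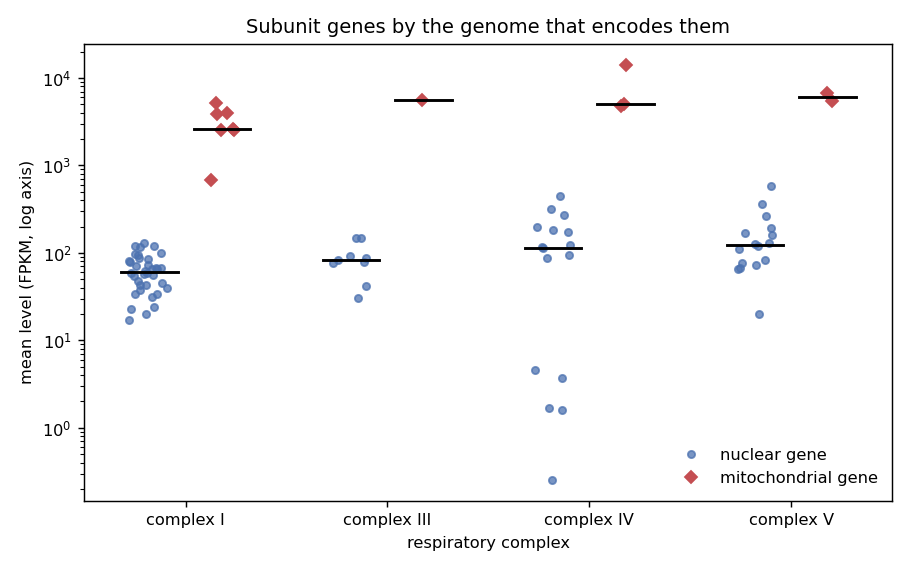
Mean FPKM (log axis) over 3 control libraries of nuclear (circles) and mitochondrial (diamonds) subunit genes of complexes I, III, IV and V, with medians as bars. Mitochondrial genes lie above every nuclear gene of the same complex. The lowest nuclear genes of complex IV include Cox6a2, Cox4i2, Cox7a1 and Cox8b.

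In all, 12399 genes (56.3%) reached 1 FPKM in each of the 3 libraries, 6015 reached 10, 460 reached 100 and 15 reached 1000. No counts were found in any library for 4523 genes. The 616 highest genes held 50% of summed FPKM. Among nuclear genes Mbp, Fth1 and the elongation factor gene Eef1a1 (1178 ± 49.0 FPKM) led, followed by Cpe (998 ± 27.8 FPKM), which trims neuropeptides. Others of the 20 highest were the imprinted signalling gene Gnas (820.2 ± 20.4 FPKM), the chaperone gene Hspa8 (795 ± 44.5 FPKM), Zwint (686 ± 16.1 FPKM), Calm2 (649 ± 25.5 FPKM), the sodium pump gene Atp1b1 (625 ± 12.8 FPKM), and Ndrg4 (598 ± 19.8 FPKM). The 20 together held 6.33 ± 0.210% of nuclear FPKM. Ribosomal protein genes, 77 in number, had a median of 121 FPKM and held 3.14 ± 0.0784%. They and Eef1a1, Fth1 and Ppia have processed copies, so their levels are uncertain to the extent that reads were shared.

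Promoter content followed level in part. Windows from 250 bases before to 50 bases after the start (RefSeq, GRCm38.p6, the most upstream start per gene) were matched for 16512 of 22036 genes. GGGCGG was found on either strand in 20.4% of promoters of genes under 1 FPKM, 62.8% at 1 to 10, 68.6% at 10 to 100 and 64.2% at 100 or more. For TATAAA the shares were 22.9%, 6.81%, 5.79% and 9.95%, and for TGACGT 4.28%, 10.4%, 12.95% and 18.8%. CCAAT differed little, at 39.5% to 36.0%. The mean number of CpG was 6.38, 20.04, 23.4 and 21.6 per window. TGACGT therefore rose through all 4 level groups, while TATAAA was most frequent under 1 FPKM. These are descriptions over genes, with no test.

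The 3 libraries were close for most genes. Depth was 40001344, 38557101 and 34446608 counts in all. Spearman's rho between libraries was 0.9886 to 0.9890 across 12837 genes, which are not independent replicates. The common biological coefficient of variation was 0.141, and the median CV was 7.004% over genes of at least 1 FPKM. It fell with level, from 15.3% at 1 to 3 FPKM to 3.83% at 100 to 1000 FPKM, where counting alone would give 6.88% and 0.843%. Among the 10 steadiest of 10 FPKM or more were Cbr1 (37.8, 37.8 and 37.9 FPKM), Sugp1 (15.0, 15.0 and 15.0 FPKM), Serbp1 (37.0, 36.9 and 36.9 FPKM), Mrps9, Ddb1, Rpl36, Emc10, Mrps10 and Sh3bgrl2. For Cbr1 the CV was 0.0989% in FPKM and 1.20% in scaled CPM. Of common reference genes, Actb stood at 231, 233 and 231 FPKM (CV 0.532%), Ppia at 252, 221 and 358 FPKM (CV 25.9%) and Gapdh had a CV of 37.0%.

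**Figure D4:**
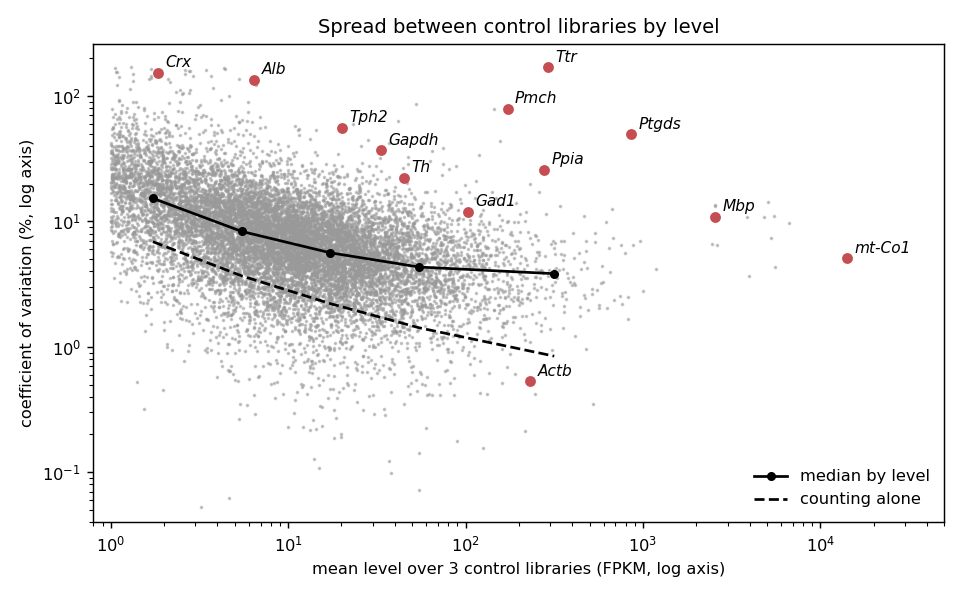
Coefficient of variation (%, log axis) against mean FPKM (log axis) over 3 control libraries for each gene of at least 1 FPKM, with the median by level (line), the value of counting alone (dashed) and named genes (red). Actb lies below the median, and Ttr, Pmch, Ptgds and Tph2 lie far above it at their level.

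Of 12837 genes of at least 1 FPKM, 331 (2.58%) differed 2-fold or more between their highest and lowest library after TMM scaling. Most of these genes are in no list used here. The highest library was Ctrl3 for 162, Ctrl1 for 109 and Ctrl2 for 60 of them. Of the listed genes of that level 58 of 737 (7.87%) did so, but the lists were drawn up with markers of neighbouring tissue in view. Without Ctrl1, Ctrl2 or Ctrl3 the number of genes was 206, 178 or 156, as a range over 2 libraries is narrower than over 3. Whether dissection or another factor set them was not tested.

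Ctrl3 held transcripts of choroid plexus. Ttr, the gene of transthyretin, which choroid plexus secretes, stood at 5.22, 3.87 and 865 FPKM, and the folate receptor gene Folr1 at 0.541, 0.691 and 9.75 FPKM. Kl (1.49, 0.803 and 13.5 FPKM), Kcne2 (0.338, 0.173 and 7.82 FPKM), Slc4a5 (0.139, 0.0823 and 2.995 FPKM) and Aqp1 (0.210, 0.135 and 3.69 FPKM) had the same pattern. All 10 listed genes were at least 2-fold higher in Ctrl3 than in the lowest library. Of all genes of at least 1 FPKM on average, 2.58% differed 2-fold between any libraries. Folr1, Kcne2, Slc4a5, Aqp1 and F5 were under 1 FPKM in Ctrl1 and Ctrl2 and met that level only through Ctrl3. For these genes a high Ctrl3 was thus fixed in advance, and the 2 shares are not like for like. The list held 0.0873 ± 0.145% of summed FPKM over 3 libraries and 0.00336% without Ctrl3. Ependymal genes, of the ventricle wall, did not share the size of this difference. Foxj1 was at 9.15, 7.25 and 13.03 FPKM and Tmem212 at 4.63, 4.34 and 4.42 FPKM. Of 6 such genes of at least 1 FPKM, 4 were highest in Ctrl3 and 5 lowest in Ctrl2, where 30.05% and 34.8% of all genes were. Their median log2 of scaled CPM over the mean of 3 libraries was 0.03, -0.47 and 0.39, against 1.43 in Ctrl3 for choroid plexus genes.

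Ctrl3 also held genes of pineal and photoreceptor cells. Tph1, the serotonin-making enzyme of the pineal gland, stood at 0, 0.314 and 12.7 FPKM with counts of 0, 57 and 1701. The photoreceptor factor gene Crx stood at 0.0162, 0.405 and 5.13 FPKM, the retinoid carrier gene Rbp3 at 0.0624, 0.430 and 7.93 FPKM and the arrestin gene Sag at 0.456, 0.226 and 4.35 FPKM. Pde6g (0.0916, 0.376 and 12.7 FPKM), Gnb3 (0.171, 0.261 and 9.92 FPKM) and Tulp1 (0, 0.0358 and 3.87 FPKM), photoreceptor genes, and the ribbon synapse gene Cplx3 (0.288, 0.812 and 5.36 FPKM) had the same order of Ctrl3 above the others. Of 13 genes in a list drawn up after the values were seen, 10 exceeded 1 FPKM on average. All of these were highest in Ctrl3, the pattern for which they were chosen, where 30.05% of all genes were. Members such as Crx, Rbp3 and Tulp1 were under 1 FPKM in Ctrl1 and Ctrl2 and met that level only through Ctrl3. The count was therefore fixed in advance by the choice of genes and is no separate result about Ctrl3. Of the 25 genes with the largest ratio of highest to lowest library 18 were highest there. Asmt, the last enzyme of melatonin synthesis, was at 0.0695, 0 and 2.38 FPKM, and Aanat, which varies with the hour, at 0.202, 0.480 and 0.524 FPKM. The promoters of Crx, Rbp3 and Sag are shown because they are the ones of this list that hold TAATCC, the core letters that homeobox proteins of the CRX kind bind. Each is the 250 bases before the start on GRCm38.p6, with TAATCC or its reverse complement GGATTA in capitals: Crx at chr7:15879956-15880205 (minus strand), Rbp3 at chr14:33953753-33954002 (plus strand) and Sag at chr1:87803430-87803679 (plus strand).
Crx promoter: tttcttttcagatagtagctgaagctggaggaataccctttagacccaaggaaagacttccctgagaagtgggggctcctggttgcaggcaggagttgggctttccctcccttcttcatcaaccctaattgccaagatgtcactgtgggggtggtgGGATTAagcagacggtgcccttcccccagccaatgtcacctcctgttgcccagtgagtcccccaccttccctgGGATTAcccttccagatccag
Rbp3 promoter: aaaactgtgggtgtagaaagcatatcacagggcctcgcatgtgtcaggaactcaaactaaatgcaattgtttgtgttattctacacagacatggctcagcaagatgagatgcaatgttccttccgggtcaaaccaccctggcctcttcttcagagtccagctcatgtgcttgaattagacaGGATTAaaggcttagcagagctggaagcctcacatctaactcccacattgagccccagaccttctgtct
Sag promoter: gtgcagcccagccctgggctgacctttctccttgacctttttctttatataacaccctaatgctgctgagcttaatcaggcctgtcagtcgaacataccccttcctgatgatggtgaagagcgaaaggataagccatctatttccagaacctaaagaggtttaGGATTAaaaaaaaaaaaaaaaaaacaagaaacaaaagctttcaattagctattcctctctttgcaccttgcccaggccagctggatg
The motif was chosen after the genes were seen. It was present in 3 of 9 windows of the list and in 5.96% of all 16512 windows of these 250 bases.

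Ctrl1 held more transcript of hypothalamic peptide neurons. Pmch, the melanin-concentrating hormone gene of the lateral hypothalamus, stood at 320.2, 50.8 and 147 FPKM and the orexin gene Hcrt at 102, 13.3 and 42.0 FPKM. The ratio of the 2 genes was 3.13, 3.83 and 3.51, so it varied less than either gene. Avp stood at 7.72, 0 and 0.960 FPKM with counts of 189, 0 and 21, and Oxt at 5.55, 0.211 and 1.63 FPKM. All 11 peptide genes of a list drawn up after the values were seen were highest in Ctrl1 and lowest in Ctrl2, and all differed at least 2-fold, the pattern for which they were chosen. Of 10 genes of at least 1 FPKM in the list of hypothalamic genes not drawn up that way, 8 were highest in Ctrl1, 7 lowest in Ctrl2 and 6 differed 2-fold or more. Of all genes of that level 33.7%, 34.8% and 2.58% did so. That list shares members with the peptide list, Pmch among them, and was chosen with earlier results of these data known. Its member Avp reached 1 FPKM on average only through Ctrl1. Its counts are therefore not independent of those of the peptide list. Cartpt (87.3, 40.3 and 67.5 FPKM), Gal (10.9, 2.31 and 4.65 FPKM) and Npy (15.9, 4.42 and 13.7 FPKM) were among the 11. The promoters of Pmch and Hcrt are shown since neurons that make these peptides lie in the lateral hypothalamus and adjoining zones. Each is the 250 bases before the start on GRCm38.p6 with TATAAA in capitals, which begins 27 bases before the start in Pmch (chr10:88090822-88091071, plus strand) and 33 bases before it in Hcrt (chr11:100762932-100763181, minus strand).
Pmch promoter: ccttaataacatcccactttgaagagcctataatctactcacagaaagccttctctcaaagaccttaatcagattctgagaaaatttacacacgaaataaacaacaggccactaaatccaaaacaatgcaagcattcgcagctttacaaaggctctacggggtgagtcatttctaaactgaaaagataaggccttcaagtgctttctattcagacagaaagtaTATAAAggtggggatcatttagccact
Hcrt promoter: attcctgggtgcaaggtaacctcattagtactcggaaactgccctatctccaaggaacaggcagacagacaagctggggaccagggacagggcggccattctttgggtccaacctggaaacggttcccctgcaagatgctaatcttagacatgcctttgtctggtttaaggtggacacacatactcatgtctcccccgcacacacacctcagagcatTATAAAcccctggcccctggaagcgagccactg
TATAAA was present on either strand in 11.9% of all windows of these 250 bases.

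Most thalamic genes had the same library order. Prkcd, a kinase gene of thalamic relay neurons, stood at 107, 50.2 and 67.6 FPKM and Ramp3 at 34.2, 23.4 and 25.3 FPKM. Of 9 listed genes 7 were highest in Ctrl1 and 8 lowest in Ctrl2, where 33.7% and 34.8% of all genes were. The cortical factor gene Tbr1 was at 0.132 ± 0.0609 FPKM, and striatal Drd1 and Adora2a stood at 0.916 ± 0.177 FPKM and 1.24 ± 0.318 FPKM. These are low members of their lists. Of 11 cortical and hippocampal genes 7 were at least 1 FPKM on average, with a median of 1.09 and a highest mean of 69.9 FPKM. Of 8 striatal genes 6 were, with a median of 5.59 and a highest mean of 19.8 FPKM. Of 7 listed pituitary hormone genes 1 was at least 1 FPKM on average, at 5.76 FPKM. It was highest in Ctrl1 and lowest in Ctrl2 and differed 2-fold or more. The median of that list was 0.0203 FPKM, and its members Prl, Gh and Cga had no counts. Of 8 liver genes in a list drawn up after the values were seen, 3 exceeded 1 FPKM on average. These were highest in Ctrl1, the pattern for which they were chosen, where 33.7% of all genes were. Ahsg met that level only through Ctrl1, so the count is no separate result. Alb stood at 16.5, 1.58 and 1.30 FPKM, Ahsg at 3.37, 0.391 and 0.272 FPKM and Serpina1c, under 1 FPKM on average, at 1.89, 0.149 and 0.128 FPKM.

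**Figure D5:**
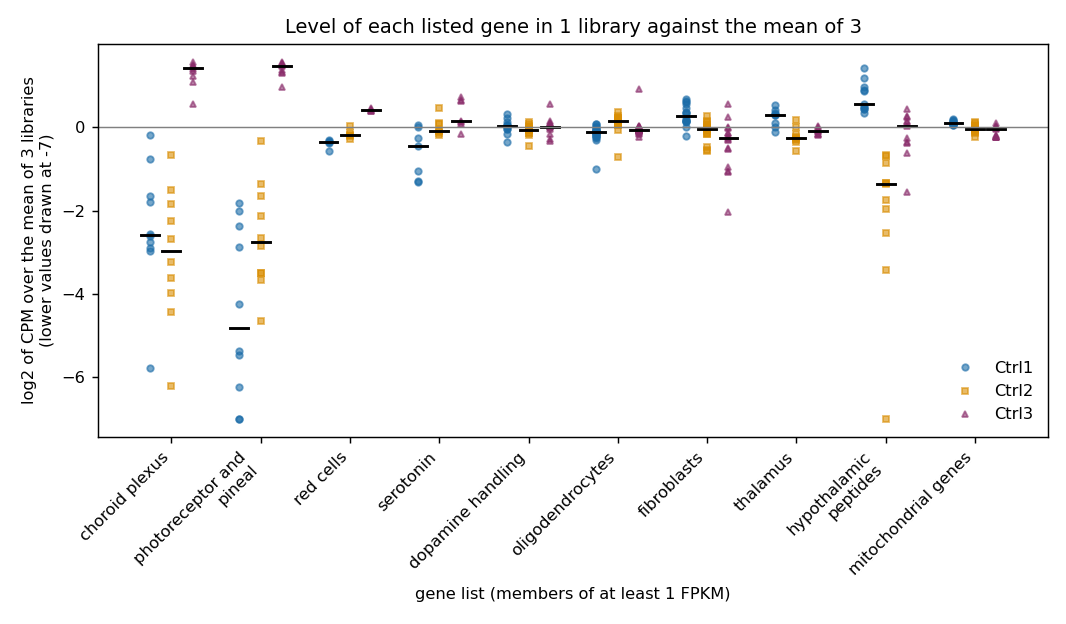
Level of each listed gene in 1 library as log2 of its TMM-scaled CPM over the mean of the 3 libraries, for members of at least 1 FPKM, with medians as bars. Choroid plexus (median 1.43) and photoreceptor and pineal genes (median 1.48) are highest in Ctrl3, and hypothalamic peptide genes are highest in Ctrl1 and lowest in Ctrl2 (medians 0.55 and -1.35). The photoreceptor and pineal list and the hypothalamic peptide list were drawn up after the values were seen.

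Other genes with a large ratio between libraries were predicted gene models and members of gene families. Gm45062 stood at 4.93, 0.152 and 0 FPKM, Gm28048 at 0.323, 7.60 and 0 FPKM and Fam205a4 at 1.65, 1.95 and 0.0952 FPKM. Gm8225 stood at 0.0807, 0 and 3.09 FPKM, Gm47283 at 0.0511, 2.53 and 1.59 FPKM and Gm21887 at 0.0861, 2.90 and 0.861 FPKM. How reads shared between such models and other genes were counted is not given in the sources used here, so their counts are uncertain. The coagulation factor gene F5 (0.179, 0.0474 and 3.02 FPKM), the receptor gene F2rl1 (0.343, 0.0505 and 2.93 FPKM), Mfrp (0.547, 0.156 and 7.21 FPKM) and the keratin gene Krt18 (0.572, 0.0969 and 2.59 FPKM) were highest in Ctrl3, with the choroid plexus genes.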

How the data were processed

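RNA sequencing of mouse substantia nigra pars compacta was read from 1 deposited table, of which the 3 control libraries were used. Total RNA was made into libraries with a NEBNext Ultra RNA kit, per the labels' protocols. The submitters' processing notes name mm10 (GRCm38) as build. Which aligner, counter, annotation and strand setting were used is not given in the sources used here. The authors deposited raw counts and FPKM per gene, and FPKM as deposited were used for levels. The authors' counts were used for the mitochondrial share and, after TMM scaling to CPM in edgeR 4.0.16 (R 4.3.3), for differences between libraries. Depth was between 34446608 and 40001344 counts, and counts without unique molecular identifiers are not independent molecules, so floors of 3 counts cover counting error only.

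Rows without an Ensembl identifier (5303, holding 1.22% to 1.25% of counts) and 10 lines naming no gene were left out. Of 22036 identifiers 22022 matched GENCODE M21. The biological coefficient of variation came from edgeR's dispersion (mean FPKM of at least 0.5), which was tested on simulated counts. The chi-square per degree of freedom between libraries was 17.7 to 20.0 over genes, so no library was a second deposit of another, which does not show that they are independent samples. Python 3.11.15 with pandas 2.3.3 gave the summaries. No groups were compared. The text names the 20 highest nuclear genes, all mitochondrial genes, the 25 most different and 10 steadiest genes (the latter of at least 10 FPKM), the 5 highest genes of each neuron class, and members of 58 lists that fit the tissue; some genes that this rule takes are not reported here. The lists, pairs of genes and motifs were chosen with earlier results of these data known, and the pairs, the lists said to be so and TAATCC after seeing the values. Listed Ndufb1 was not matched. Motifs were searched on both strands of RefSeq windows, and none of the motifs contains another. Alternatives covered each library left out, other thresholds and scalings, counts per kilobase, and DESeq2 1.42.0 size factors.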

Additional observations from a re-analysis of the deposited data

How the results depend on the processing

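No paired analysis was possible because the values describe 1 group and come from no test. The mitochondrial share of counts was 6.50% to 6.83% when each library was left out in turn, and it was 17.3% as a share of summed FPKM. Genes detected in every library numbered 12484 to 12567 with a library left out. The common biological coefficient of variation was 0.127 to 0.142 with a library left out, 0.164 with no filter on low values and 0.0909 at 5 FPKM or more. The median CV was 5.28% to 6.11% with a library left out, 6.68% on scaled CPM and 5.72% at 5 FPKM or more. Genes differing 2-fold or more numbered 156 to 206 with a library left out. Nuclear genes of the lists held 17.3 ± 0.339% of summed FPKM, 17.2% to 17.5% with a library left out, 15.9% in counts per kilobase and 20.9% without the mitochondrially encoded genes. TGACGT was 14.5 percentage points more frequent in promoters of genes at 100 FPKM or more than under 1 FPKM, and 10.1 points more than in all others. The 59 lists with a share of summed FPKM changed by a median of 1.03-fold in counts per kilobase, from 0.573 to 1.12, so 58 of them stayed within 1.5-fold and the iron list did not. Levels below 1 FPKM rest on few counts, and at 1 to 3 FPKM counting alone gives a CV of 6.88%.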
